A study of Homo sapiens with 6 samples.

Results

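The super elongation complex was examined through the RNA of 9 genes, *AFF1*, *AFF4*, *ELL*, *ELL2*, *ELL3*, *MLLT1*, *MLLT3*, *EAF1* and *EAF2*, chosen for their place in the complex and read by symbol from a table of 29744 genes. All 9 were listed, and all 9 passed the filter on low values that left 13373 genes to test. RNA-seq was performed on LNCaP, a human line derived from prostate cancer that responds to androgen, grown in RPMI-1640 medium with fetal bovine serum. It was treated for 4 h with CDKI-73 at 250 nM (n = 3 biological replicates) or for 4 h with the vehicle DMSO (n = 3 biological replicates). CDKI-73 inhibits CDK9, and the comparison addresses which transcripts change soon after treatment with it. The study reports that the compound acts on CDK1, CDK2 and CDK7 as well, and does not exclude effects outside CDK9. CDKI-73 also appears in the titles of the vehicle samples, which were taken as DMSO from their treatment label, and every direction given here rests on that label.

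The super elongation complex carries P-TEFb, the kinase formed by CDK9 and a cyclin T, to RNA polymerase II that has paused shortly after the start of a gene. AFF1 and AFF4 are its flexible scaffolds, to which the other subunits bind. ELL, ELL2 and ELL3 are elongation factors that raise the catalytic rate of the polymerase, EAF1 and EAF2 bind and stimulate the ELL proteins, and MLLT1 (ENL) and MLLT3 (AF9) read acetylated histones through a YEATS domain. Several of these genes were first known as fusion partners of *KMT2A* (MLL) in leukemia, and *EAF2* and *ELL2* are known as androgen-responsive genes of the prostate.

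The deposited values are CPM, in which the reads of a gene are divided by those counted in its sample and scaled to a fixed total, so a CPM is a share. Depth inferred from the step between values was 46.1 to 60.9 M reads per sample. CDKI-73 replicate 3 stood apart, with a chi-square per gene of 28.1 and 30.7 against the other CDKI-73 replicates. Those differed from each other by 3.54, and DMSO replicates by 4.62 to 15.6. The chi-squares were computed on reads inferred from rounded CPM, which are approximate. The cell type label was checked by markers. All 8 luminal prostate markers were present, with sums of 7041 to 7426 CPM with DMSO and 6070 to 6396 CPM with CDKI-73, and the immune markers *PTPRC* and *CD3E* reached no more than 0.04 CPM in sum. The basal markers *KRT5* and *TP63*, the stromal markers *COL1A2* and *DCN* and the endothelial marker *PECAM1* were likewise at or near 0, while *KRT14* (0.51 to 1.31 CPM), *VWF* (10.0 to 11.9 CPM) and *COL1A1* (9.40 to 14.9 CPM) were not. Of the neuroendocrine pair, *CHGA* was at no more than 0.04 CPM and *SYP* at 2.24 to 2.84 CPM, and the part of any of these in the results was not tested.

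All 9 genes of the complex were lower after CDKI-73, at an adjusted p of 0.05 or less by limma, beside 48.2% of all tested genes lower, 24.2% higher and 72.4% called in either direction. None of the 9 was higher, also at an unadjusted p under 0.05. The 9 remained lower without CDKI-73 replicate 3. For each of the 9, the highest CDKI-73 value was under the lowest DMSO value, as for 50% of tested genes. The log2 fold changes, CDKI-73 over DMSO on the log2(CPM + 0.1) scale, ran from -1.42 for *AFF1* to -0.31 for *MLLT1*, with a median of -0.79 beside -0.18 over all genes tested. *AFF1* alone was lower by at least 2-fold, 1 of 9 genes beside 22.3% of tested genes, and none was higher by that much, beside 1.11%. Between 14.8% and 43.6% of tested genes had a log2 fold change lower than that of the member. Since CPM are shares, these directions depend on scaling: scaled to the upper quartile of all genes above 0, *MLLT1* turned higher (0.19) and *AFF4* had a value of 0.06, and 5 genes, *AFF1*, *ELL*, *ELL2*, *MLLT3* and *EAF2*, were lower under every scaling tried. A fall in every cell and a larger fall in some of the cells cannot be told apart in these bulk samples.

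**Figure D1:**
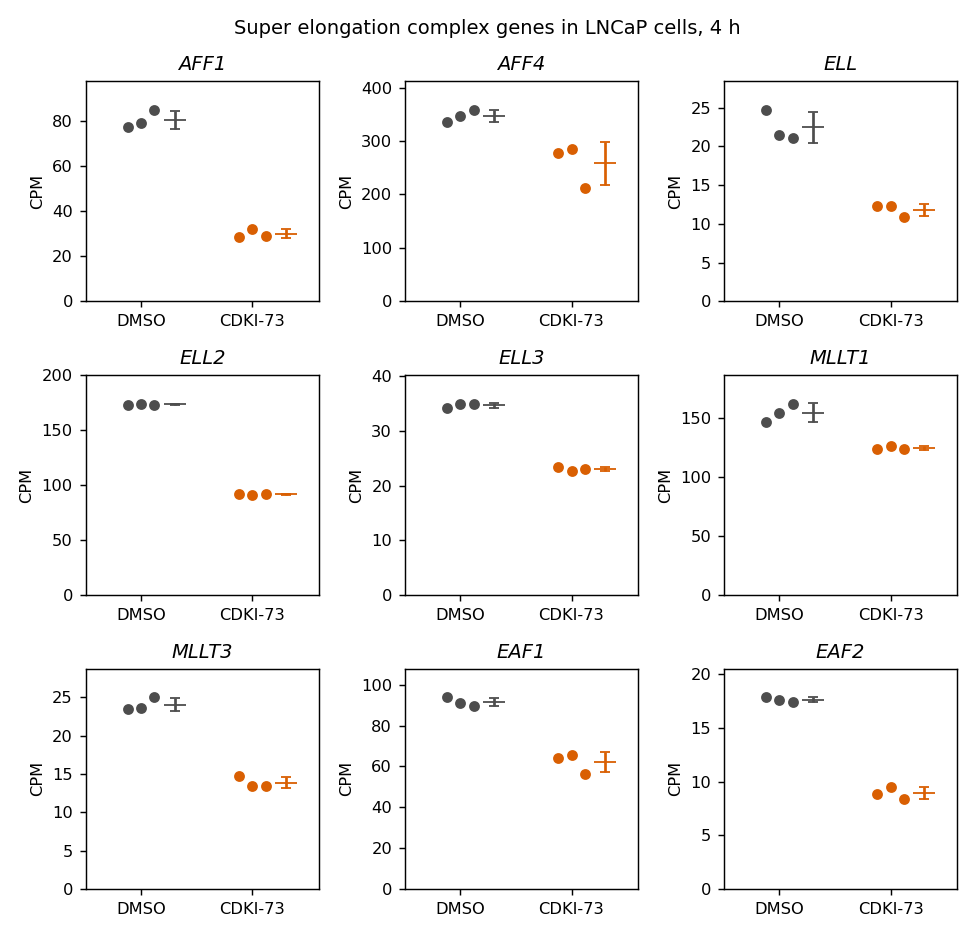
CPM of the 9 genes (vertical axes from 0, 1 panel a gene) in the 3 DMSO samples (grey points) and the 3 CDKI-73 samples (orange points), with the mean and SD beside them. In each panel all CDKI-73 points lie below all DMSO points, with the largest drop relative to DMSO for AFF1 (80.5 to 30.0 CPM) and the smallest for MLLT1 (154.4 to 124.7 CPM).

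Among the scaffolds, *AFF1* (chromosome 4 of hg38, 86935002 to 87141039, plus strand, GENCODE v44) had 77.4, 79.0 and 85.1 CPM in DMSO replicates 1, 2 and 3 and 28.7, 32.2 and 28.9 CPM in CDKI-73 replicates 1, 2 and 3. The groups were far apart and the 3 samples of each lay close together. Its log2 fold change was -1.42 (SE 0.064, adjusted p = 2.7e-07 from limma), so that 37.2% of the DMSO level remained. No other gene of the 9 had under 50% of its DMSO level.

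*AFF4* (chromosome 5, 132875395 to 132963634, minus strand), the other scaffold gene, had 336.5, 346.6 and 358.7 CPM with DMSO and 277.9, 285.7 and 212.6 CPM with CDKI-73. The low sample was CDKI-73 replicate 3, at 0.754 times the mean of the other CDKI-73 replicates, where the median gene was at 0.987 times. The log2 fold change of *AFF4* was -0.44 (SE 0.10, adjusted p = 0.0055 from limma), and without CDKI-73 replicate 3 it was -0.30 (adjusted p = 4.0e-05 from limma). By the median of gene ratios it no longer passed the threshold (-0.23, adjusted p = 0.055 from limma), nor by the upper quartile of tested genes (-0.16, adjusted p = 0.17 from limma).

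The scaffolds thus differed in the size of their change. Within a sample, where library scaling cancels, *AFF4* stood at 4.35, 4.39 and 4.21 times *AFF1* in CPM with DMSO and at 9.69, 8.86 and 7.35 times with CDKI-73. The ratio was higher in each CDKI-73 sample than in each DMSO sample. The log2 ratio rose by 0.99, from 2.11 ± 0.030 (SD, n = 3) to 3.10 ± 0.20 (SD, n = 3), with an exact two-sided permutation p = 0.1, the smallest that 3 samples against 3 can give (p = 0.12 adjusted over the 6 paralog pairs compared). The third family member measured, *AFF3*, which is no part of the list, went from 20.8 ± 1.47 to 18.5 ± 1.34 CPM (SD, n = 3) and did not pass the test (adjusted p = 0.076 from limma).

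Of the ELL genes, *ELL2* (chromosome 5, 95885098 to 95961851, minus strand) was the most evenly measured gene of the complex. It had 173.2, 174.0 and 172.4 CPM with DMSO and 91.6, 91.0 and 91.9 CPM with CDKI-73, with a coefficient of variation of 0.465% and 0.475% where the median gene had 4.62% and 7.47%. The 3 CDKI-73 samples lay within 1 CPM of each other, replicate 3 included. The log2 fold change was -0.92 (SE 0.038, adjusted p = 1.7e-07 from limma).

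*ELL* (chromosome 19, 18442663 to 18522116, minus strand), the founding member of the family, had 24.7, 21.5 and 21.1 CPM with DMSO and 12.3, 12.3 and 10.9 CPM with CDKI-73. DMSO replicate 1 was the highest sample, and the groups did not overlap. Its log2 fold change of -0.92 (SE 0.083, adjusted p = 1.7e-05 from limma) lay beside that of *ELL2*. *ELL2* stood at 7.01 to 8.17 times *ELL* with DMSO and at 7.42 to 8.40 times with CDKI-73, so the ranges overlapped and no difference was detectable (log2 ratio lower by 0.0036, exact permutation p = 1). With 3 samples a group and an SD of 0.12 and 0.10 on the log2 scale, this does not show that both changed alike. A long non-coding RNA gene on the opposite strand, ENSG00000268199, shares 9.62% of the *ELL* exon bases and is not listed under this name.

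*ELL3* (chromosome 15, 43772605 to 43777315, minus strand), a short gene known as the testis-enriched family member, had 34.1, 34.9 and 35.0 CPM with DMSO and 23.3, 22.7 and 23.1 CPM with CDKI-73. Its coefficient of variation was 1.38% with DMSO and 1.31% with CDKI-73, wider than for *ELL2* and under the median gene, and it had a log2 fold change of -0.59 (SE 0.048, adjusted p = 8.9e-06 from limma). Relative to *ELL2* it was higher by 0.33 on the log2 scale and relative to *ELL* by 0.33, in each case with no overlap between groups and exact permutation p = 0.1 (0.12 adjusted over the 6 pairs). *ELL3* shares exon bases with *PDIA3* (24.9% of its exon bases) and *SERF2* (8%) on the opposite strand. *PDIA3* reached 1135 CPM, so the *ELL3* count could be affected if counting did not use strand, and the counted strand was not stated. On the same strand, a protein-coding gene known by its identifier ENSG00000262560 shares 62.3% of the *ELL3* exon bases, which strand cannot resolve. That gene is not listed in the deposited values under this name. Whether it was counted apart from *ELL3* is not known, so the *ELL3* values are uncertain. Under scaling to the upper quartile of all genes above 0, *ELL3* did not pass the threshold (-0.09, adjusted p = 0.11 from limma).

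Among the YEATS readers, *MLLT3* (chromosome 9, 20341669 to 20622499, minus strand) had 23.5, 23.6 and 25.0 CPM with DMSO and 14.7, 13.4 and 13.5 CPM with CDKI-73. Here CDKI-73 replicate 1 was the highest of its group and remained well under the DMSO samples. The log2 fold change was -0.79 (SE 0.063, adjusted p = 7.9e-06 from limma). *MLLT3* has the longest span of the 9 genes, 280.8 kb.

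*MLLT1* (chromosome 19, 6210381 to 6279975, minus strand) had 146.4, 154.6 and 162.2 CPM with DMSO and 123.6, 126.5 and 124.0 CPM with CDKI-73. The DMSO samples were the more spread, and the groups did not overlap. The log2 fold change of -0.31 (SE 0.048, adjusted p = 5.4e-04 from limma) was the smallest of the 9. It did not pass the threshold by the median of gene ratios (-0.11, adjusted p = 0.069 from limma) or by the upper quartile of tested genes (-0.03, adjusted p = 0.55 from limma). Within a sample, *MLLT3* stood at 0.153 to 0.160 times *MLLT1* with DMSO and at 0.106 to 0.119 times with CDKI-73. This log2 ratio fell by 0.48, with no overlap between groups (exact permutation p = 0.1, 0.12 adjusted over the 6 pairs).

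The EAF genes completed the set. *EAF2* (chromosome 3, 121835183 to 121886526, plus strand), also known as U19, had 17.8, 17.6 and 17.4 CPM with DMSO and 8.87, 9.50 and 8.38 CPM with CDKI-73. It kept 50.6% of its DMSO level, the lowest share after *AFF1*, with a log2 fold change of -0.98 (SE 0.068, adjusted p = 3.4e-06 from limma). Without CDKI-73 replicate 2 its log2 fold change was -1.02, which takes the genes lower by at least 2-fold from 1 to 2.

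*EAF1* (chromosome 3, 15427598 to 15450635, plus strand) had 93.8, 90.9 and 89.8 CPM with DMSO and 64.3, 65.7 and 56.3 CPM with CDKI-73. As for *AFF4*, CDKI-73 replicate 3 was the lowest, at 0.866 times the mean of the others. The log2 fold change was -0.56 (SE 0.064, adjusted p = 7.8e-05 from limma), and -0.49 without that sample. *EAF2* stood at 0.190 to 0.194 times *EAF1* with DMSO and at 0.138 to 0.149 times with CDKI-73, a log2 ratio that fell by 0.42 with no overlap (exact permutation p = 0.1, 0.12 adjusted over the 6 pairs). An antisense RNA gene, *EAF1-AS1*, shares 30.6% of the exon bases of *EAF1* and is not listed in the deposited values under this name. Also on the opposite strand, *COLQ* (9.41% of the exon bases, up to 1.82 CPM) and *METTL6* (6.99%, up to 37.4 CPM) overlap *EAF1*. The *EAF1* count could be affected if counting did not use strand. By the upper quartile of all genes above 0, *EAF1* did not pass the threshold (-0.06, adjusted p = 0.36 from limma).

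**Figure D2:**
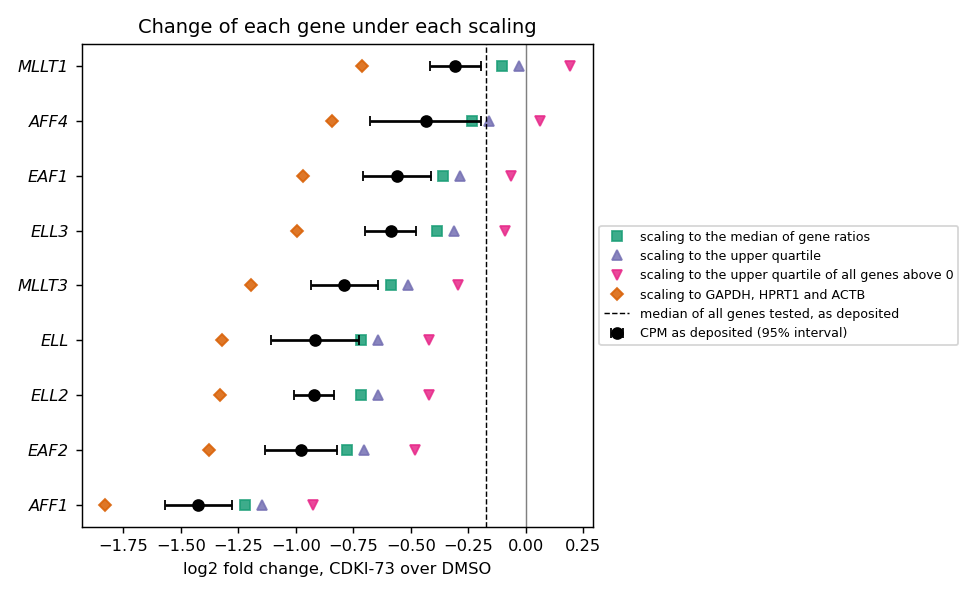
Log2 fold change, CDKI-73 over DMSO (horizontal axis), of each of the 9 genes, with the 95% interval from limma for CPM as deposited (black) and the values under 4 other scalings (colored). AFF1 has the lowest value as deposited (-1.42) and MLLT1 the highest (-0.31), and MLLT1 and AFF4 cross 0 under the upper quartile of all genes above 0 (0.19 and 0.06).

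Of the 6 paralog pairs, 5 thus had ratios that did not overlap between groups, with no p under 0.05 possible at this sample number. The share among gene pairs in general was not measured. For single genes, 50% of those tested had every CDKI-73 sample below every DMSO sample, and 25.9% had every one above. The ELL pairs also share genes, so the 5 are not separate observations. In the AFF, YEATS and EAF families the gene with the lower CPM with DMSO (*AFF1*, *MLLT3* and *EAF2*) had the larger fall. The ELL family did not follow this order, since *ELL2*, the highest in CPM, and *ELL*, the lowest, each had a log2 fold change of -0.92, and *ELL3*, between them in level, had -0.59. Across the 9 genes the log2 fold change had a Spearman correlation of 0.50 with the DMSO level, -0.25 with gene span, 0.12 with transcript length and -0.0086 with the number of exons, as a description over 9 genes from the same 6 libraries. Over all tested genes the value for the DMSO level was 0.03 (13373 genes), and over the 11050 genes with a unique GENCODE match those for span, transcript length and exons were -0.08, -0.29 and 0.16.

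**Figure D3:**
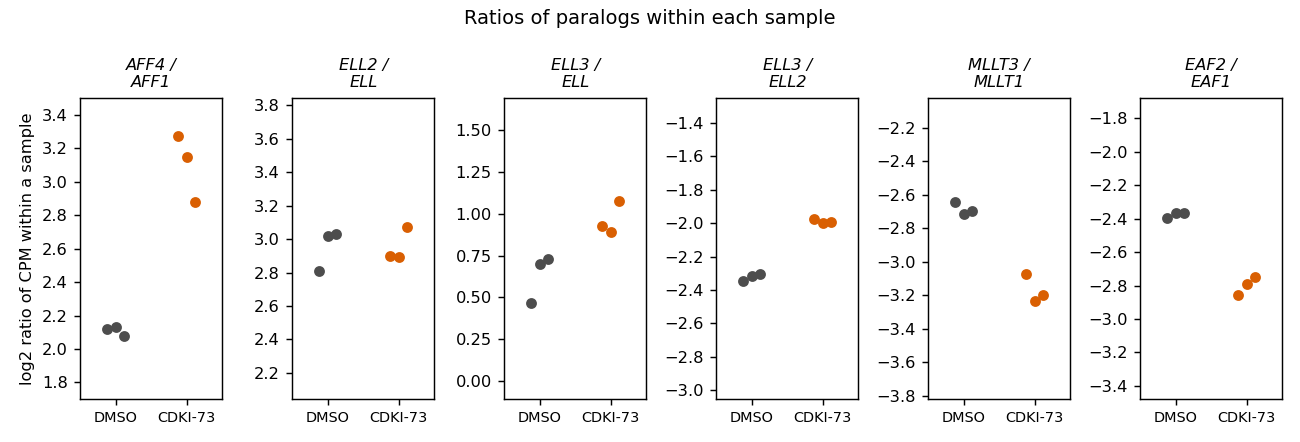
Log2 ratio of CPM between paralogs within each sample (vertical axes, each spanning the same range) for 6 pairs, with DMSO samples in grey and CDKI-73 samples in orange. The AFF4 to AFF1 ratio rises most (2.11 to 3.10 on the log2 scale), the MLLT3 to MLLT1 and EAF2 to EAF1 ratios fall, and ELL2 to ELL overlaps between groups.

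Per kilobase of the MANE Select transcript, which allows levels to be set side by side between genes, *AFF4* (36.4 ± 1.16 CPM per kb), *MLLT1* (34.1 ± 1.75) and *ELL2* (29.7 ± 0.14; SD, n = 3 each) were the most abundant with DMSO. The ranges of *AFF4* and *MLLT1* overlapped, and those of the other neighbours in this order did not. *EAF1* (20.6 ± 0.46), *ELL3* (19.8 ± 0.27) and *EAF2* (17.6 ± 0.22) formed a middle level. The lowest were *AFF1* (8.69 ± 0.44), *ELL* (5.65 ± 0.50) and *MLLT3* (3.57 ± 0.12 CPM per kb). Within the families, *AFF4*, *ELL2*, *MLLT1* and *EAF1* had the highest level per length. With CDKI-73, *MLLT1* (27.5 ± 0.34) and *AFF4* (27.1 ± 4.21) overlapped again, *ELL2* followed at 15.7 ± 0.075 CPM per kb, and *EAF1* (14.0 ± 1.14) and *ELL3* (13.1 ± 0.17) no longer differed beyond their ranges. *EAF2*, *AFF1*, *ELL* and *MLLT3* followed in the same order as with DMSO, down to *MLLT3* at 2.06 ± 0.11 CPM per kb, though *AFF1* and *ELL* overlapped when divided by the longest transcript. Without division by length *AFF1* had rank 5 with DMSO and *EAF2* rank 9, since the *EAF2* transcript has 998 bases and that of *AFF1* 9261.

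**Figure D4:**
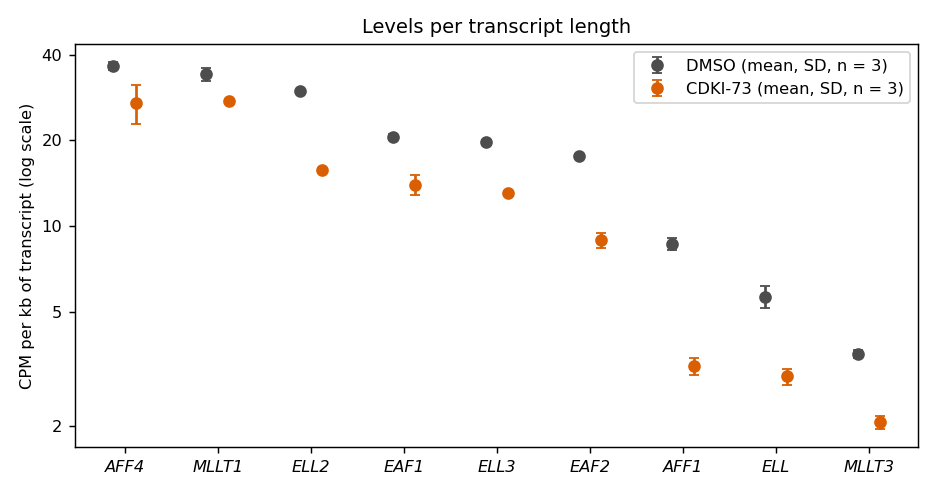
CPM per kb of MANE Select transcript (log axis) for the 9 genes, ordered by the DMSO mean, as mean and SD of 3 samples with DMSO (grey) and CDKI-73 (orange). Levels with DMSO run from 36.4 CPM per kb for AFF4 to 3.57 for MLLT3, and each CDKI-73 mean lies below its DMSO mean.

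The promoter sequences of the AFF and YEATS pairs are shown because these paralogs moved furthest apart. They are the 250 bases before the RefSeq start (GRCh38.p14), 5′ to 3′ in the sense of the gene, at chr4:86934761-86935010 on the plus strand for *AFF1*, and on the minus strand at chr5:132963635-132963884 for *AFF4*, chr19:6279976-6280225 for *MLLT1* and chr9:20622500-20622749 for *MLLT3*. Capitals mark exact matches, on either strand, to any of 5 motifs. The TATA box was searched as TATAAA and the GC box as GGGCGG. The CCAAT box was searched by those letters, an ETS-type motif as CCGGAAG and the E-box as CACGTG.
AFF1: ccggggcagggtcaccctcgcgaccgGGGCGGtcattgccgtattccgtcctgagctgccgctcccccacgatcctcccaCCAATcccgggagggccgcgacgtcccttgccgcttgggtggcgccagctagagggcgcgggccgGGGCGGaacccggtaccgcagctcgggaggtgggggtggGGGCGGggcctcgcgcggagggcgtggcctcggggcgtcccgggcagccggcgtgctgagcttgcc
AFF4: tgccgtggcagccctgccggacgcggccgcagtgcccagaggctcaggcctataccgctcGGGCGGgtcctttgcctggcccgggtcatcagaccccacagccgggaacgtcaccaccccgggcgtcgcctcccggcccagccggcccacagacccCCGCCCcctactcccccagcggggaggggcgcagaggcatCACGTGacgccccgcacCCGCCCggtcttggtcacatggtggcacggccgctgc
MLLT1: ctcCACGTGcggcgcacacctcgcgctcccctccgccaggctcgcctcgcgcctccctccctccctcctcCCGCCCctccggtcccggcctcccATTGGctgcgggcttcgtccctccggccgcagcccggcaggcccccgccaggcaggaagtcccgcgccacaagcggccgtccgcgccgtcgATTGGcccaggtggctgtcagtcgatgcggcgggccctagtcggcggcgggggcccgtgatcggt
MLLT3: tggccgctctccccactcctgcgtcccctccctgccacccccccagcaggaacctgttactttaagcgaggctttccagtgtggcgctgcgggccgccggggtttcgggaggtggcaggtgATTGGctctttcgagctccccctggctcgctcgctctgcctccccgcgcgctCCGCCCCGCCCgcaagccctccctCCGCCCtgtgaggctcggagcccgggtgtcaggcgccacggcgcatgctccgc
All 4 were rich in G and C (72.0% to 77.2%, where the median promoter of tested genes had 64.4%). *AFF1* (in the window shown), *AFF4* and *MLLT3* had 3 GC box matches each, of which 2 overlap in *MLLT3*, and *MLLT1* had 1. *MLLT1* had 2 CCAAT matches, *AFF1* and *MLLT3* had 1 each and *AFF4* had none, while an E-box lay in the *AFF4* and *MLLT1* windows.

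RefSeq promoters were matched for 8 of the 9 genes, all but *ELL2*, in 9 windows, since *AFF1* has a second start, whose window held no GC box match. GC box matches were found in 8 of the 9 windows, beside 63.1% of the windows of tested genes. The TATA letters were in 0 of the 9, beside 5.73%, and an ETS-type match was in 2, those of *EAF1* and *EAF2*, beside 14.2%. CCAAT was in 6 windows of 5 genes, beside 33.3%. A match describes the letters in a window and was not tested against binding or against the changes in RNA.

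The genes that work with the complex were examined in 8 lists of 56 genes, of which 54 were tested, and 35 passed the limma threshold as lower and 10 as higher, beside 48.2% and 24.2% of all tested genes. These counts were 47 and 2 when scaled to *GAPDH*, *HPRT1* and *ACTB*, and 22 and 23 by the upper quartile of all genes above 0. In the P-TEFb and 7SK list all 7 genes were lower, 5 of them by at least 2-fold (22.3% of tested genes were lower by that much), with a median log2 fold change of -2.19. *MEPCE*, the methylase that caps 7SK RNA, went from 64.0 ± 2.46 to 7.98 ± 1.49 CPM (SD, n = 3; log2 fold change -3.00). *HEXIM1* and *HEXIM2*, inhibitors of P-TEFb within the 7SK particle, had log2 fold changes of -2.90 and -2.26. *CCNT1*, the main cyclin partner of CDK9, had 110.9, 113.8 and 111.1 CPM with DMSO and 34.2, 35.3 and 12.2 CPM with CDKI-73, so that CDKI-73 replicate 3 was far below the other CDKI-73 samples (log2 fold change -2.19, SE 0.36, adjusted p = 6.8e-04 from limma). *CDK9* itself, named after its values were seen, had a log2 fold change of -0.85 (46.8 to 26.1 CPM). *LARP7*, the 7SK-binding protein gene, was lower as deposited (-0.17) and higher under the upper quartile of all genes above 0 (0.32), and the other 6 genes were lower under every scaling tried.

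Of 7 genes for recruitment and turnover of the complex, 5 were lower and none was higher by limma, beside 48.2% and 24.2% of all tested genes. The counts were 7 and 0 when scaled to the reference genes *GAPDH*, *HPRT1* and *ACTB* and 2 and 3 under the upper quartile of all genes above 0. *SIAH1* and *SIAH2*, ubiquitin ligases of which SIAH1 is known to target ELL2, fell from 31.7 ± 0.97 to 5.56 ± 1.21 CPM and from 29.3 ± 0.71 to 4.53 ± 1.57 CPM (SD, n = 3), log2 fold changes of -2.51 and -2.73 that stayed lower under every scaling. *KMT2A* (-0.80) and *MED26* (-0.55), the Mediator subunit that docks the complex, each lost significance under some scalings. CDKI-73 replicate 3 was the lowest for both, at 22.6 CPM against 41.1 and 41.2 CPM for *KMT2A* and 5.49 CPM against 10.4 and 9.73 CPM for *MED26*. The count of lower genes in this list was 4 without a filter, without trend and with the robust fit.

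The little elongation complex, which holds ELL at small nuclear RNA genes, had all 4 genes lower, beside 48.2% of all tested genes. *KIAA0947* (ICE1) and *USPL1* had log2 fold changes of -1.39 and -1.71, and *NARG2* (ICE2) and *ZC3H8* of -0.39 and -0.40, of which the latter pair changed sign under the upper quartile of all genes above 0 (0.10 and 0.098). The DOT1L complex, which MLLT1 and MLLT3 join by the same surface that binds AFF proteins, had all 3 genes lower, beside the same 48.2%. They were *MLLT10* (-1.34), the methyltransferase gene *DOT1L* (-0.81) and *MLLT6* (-0.28), the last turning to 0.22 under that scaling. Of the paralogs outside the list, *YEATS2* (-1.14) and *YEATS4* (-0.58) were lower, *AFF3* did not pass, and *AFF2*, at no more than 0.02 CPM, was not tested. Under that scaling *YEATS4* did not pass (-0.08) and *AFF3* passed as higher (0.32), while *AFF3* passed as lower when scaled to the reference genes (-0.58).

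Of 12 genes of pausing and PAF factors, 6 were lower and 4 higher as deposited (median -0.08), beside 48.2% and 24.2% of all tested genes. The counts were 10 lower and 0 higher when scaled to the reference genes and 4 lower and 7 higher under the upper quartile of all genes above 0, so the balance of directions depends on scaling. *LEO1* (-1.80), *RTF1* (-0.89) and *CDC73* (-0.68), which encode parts of or partners to the PAF complex, and *NELFA* (-1.34), a subunit of the pausing factor NELF, were lower under every scaling tried. Other genes of these complexes differed. *NELFE* (0.34), *NELFCD* (0.16) and *WDR61* (0.18), named after their values were seen, were higher as deposited, and *NELFB* (0.0048) was not called. Scaled to the reference genes, *NELFCD* (-0.25), *NELFB* (-0.40) and *WDR61* (-0.23) were lower and *NELFE* (-0.07) did not pass. Of 9 other elongation factors, 2 were lower and 4 higher (median 0.11), against 6 and 0 when scaled to the reference genes and 1 and 7 under the upper quartile of all genes above 0. *IWS1*, a partner of SPT6, was lower under every scaling (-1.38), while *TCEB3* (-0.36), the elongin A gene, changed sign under the upper quartile of all genes above 0. *TCEB2* (0.53) and *TCEA2* (0.53) were higher, but not under scaling to *GAPDH*, *HPRT1* and *ACTB* (0.12 each).

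In the list of inducible genes known to use the complex, 6 of 9 tested genes were lower and 2 higher by limma, beside 48.2% and 24.2% of all tested genes. The counts were 7 and 2 when scaled to the reference genes and 4 and 3 under the upper quartile of all genes above 0. They also depended on the filter, with 6 and 0 at a mean of at least 2 CPM and 7 and 2 without a filter. *DNAJB1*, a heat shock cochaperone gene, went from 105.1 ± 3.22 to 8.24 ± 2.13 CPM (SD, n = 3; log2 fold change -3.69), *IER2* from 25.9 ± 1.58 to 7.33 ± 0.36 CPM (-1.81), *MYC* had a log2 fold change of -1.52 and *HSPA1B* of -1.47. These 4 genes were lower under every scaling. For *MYC*, CDKI-73 replicate 3 had 44.1 CPM, against 76.1 and 74.3 CPM in the other CDKI-73 replicates. *HSPA1B* has a near-identical copy, *HSPA1A*, listed at no more than 0.37 CPM, so the division of reads between them is uncertain. The higher genes were *FOS* (0.437 ± 0.047 to 0.963 ± 0.047 CPM) and *EGR1* (0.860 ± 0.16 to 1.71 ± 0.067 CPM; SD, n = 3), named after their values were seen and both near the filter of 0.5 CPM. *FOS* was under 0.5 CPM in each DMSO sample and passed the filter only through its CDKI-73 values.

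**Figure D5:**
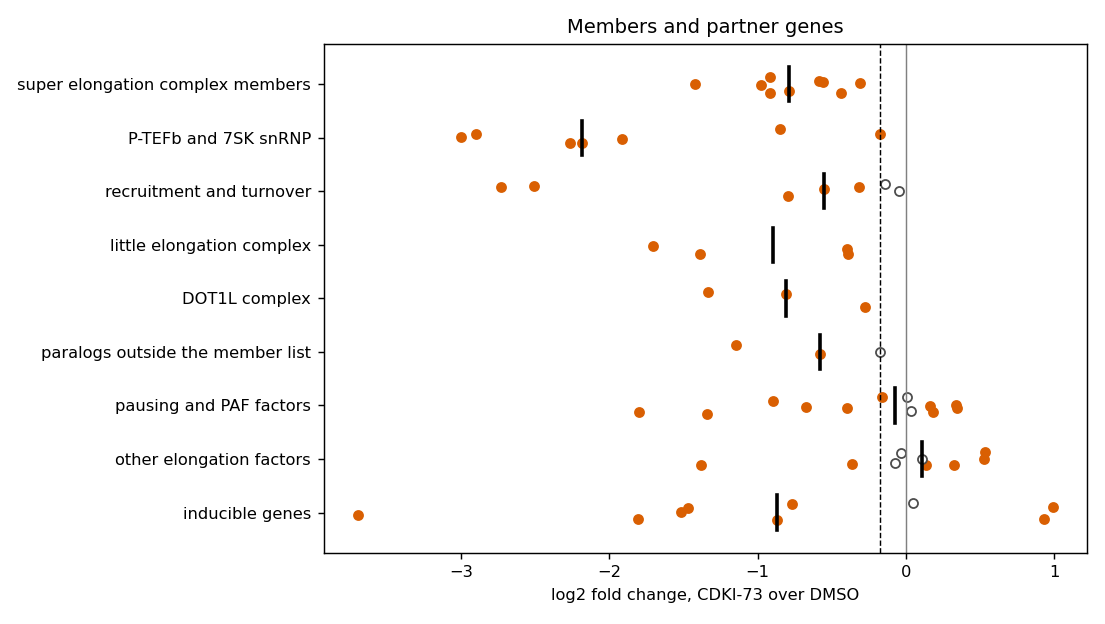
Log2 fold change, CDKI-73 over DMSO (horizontal axis), of the 9 genes of the complex and of the tested genes in 8 partner lists (rows, with vertical jitter), filled where the adjusted p from limma was 0.05 or less and open where not. Thick bars are the median of each row, from -2.19 for P-TEFb and 7SK to 0.11 for other elongation factors, with -0.18, the median over all tested genes, drawn as a dashed line. LARP7, NARG2, ZC3H8, MLLT6 and TCEB3 are among those whose sign flips under the upper quartile of all genes above 0.

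The genes whose pattern over the 6 samples was most like that of *AFF1*, by Euclidean distance of centred log2(CPM + 0.1) among 10210 genes with a mean of at least 5 CPM, were *KIAA0355* (distance 0.073), *WIPF2* (0.085), *POLH* (0.087), *ARHGEF7* (0.096) and *XPC* (0.099). Their log2 fold changes lay between -1.46 and -1.39, and values close to that of *AFF1* follow from picking genes by distance over the same samples. Within the complex, *ELL2* and *EAF2* were the closest pair (0.15) and *AFF1* and *MLLT1* the most distant (1.37). *AFF1* was nearer to *EAF2* (0.57) than to its paralog *AFF4* (1.24).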

How the data were processed

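PolyA+ RNA of LNCaP cells was sequenced as stranded single-end libraries. Per the study's methods, the authors mapped reads to hg38 with STAR and counted them per gene in its GeneCounts mode, and the submitters' processing notes name FastQC, R 3.2.3 and edgeR 3.3. For the gene annotation and the counted strand, nothing is stated in the sources used here. The authors deposited CPM rounded to 0.01, each sample summing to the full CPM total. The step between values gave 46.1 to 60.9 M reads per sample (0.0164 to 0.0217 CPM a read). Only 26.9% to 47.1% of low values came within 0.1 of whole reads, which were therefore not taken as recovered.

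The 13373 genes with a mean of at least 0.5 CPM entered limma 3.58.1 (R 4.3.3) as log2(CPM + 0.1). The fit used eBayes with an intensity trend and Benjamini-Hochberg adjustment over all of these genes. Fold changes on the log2(CPM + 0.1) scale understate the change of low genes. The fit was run on simulated data with a small part of the genes changed in both directions. That simulation does not cover a shift of most genes, as in these data. Ratios were compared by an exact two-sided permutation test in SciPy 1.17.1. The 9 genes and the partner lists were chosen with earlier results of these data known. Named partner genes are those with the largest absolute log2 fold change among the called, at most 4 a list. Added after their values were seen were *CDK9*, *LARP7*, *AFF2*, *AFF3*, *NELFB*, *NELFCD*, *NELFE*, *WDR61*, *FOS*, *EGR1* and *HSPA1A*. A gene of the lists is not reported here. *ICE1*, *ICE2* and the elongin genes were found under older symbols. Coordinates and transcript lengths are from GENCODE v44, used in place of RefSeq transcript lengths, and promoters from RefSeq. Scaling, filter, pseudocount, model and left-out samples were varied. Plots used matplotlib 3.10.9.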

Additional observations from a re-analysis of the deposited data

How the results depend on the processing

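All 9 genes stayed lower past the adjusted p with pseudocounts of 0.01 and 1 CPM, without a filter, with a mean of at least 2 CPM, without trend, robust, by limma voom on inferred reads, with the replicate number as a block and without any sample in turn. With the replicate block 9 were lower, as without it. Correlations of deviations between same-numbered samples were -0.295, 0.106 and -0.227, and those between differently numbered samples ran from -0.223 to 0.339. With 3 samples a group these values cannot show whether same-numbered samples were paired. Scaling changed counts. Median gene ratios, the upper quartile of tested genes, *GAPDH*, *HPRT1* and *ACTB*, and the upper quartile of all genes above 0 (chosen after seeing the data) moved the median of all genes by 0.20, 0.27, -0.40 and 0.48 on the log2 scale. The median over the 9 genes was then -0.59, -0.51, -1.19 and -0.29, and of all genes called 50.8%, 46.0%, 96.2% and 35.1% were lower, against 66.5% as deposited. The last scaling left 5 of the 9 lower, 1 higher and 0 lower by at least 2-fold, with *AFF4* at 0.061 and *MLLT1* at 0.19, and 22 partner genes lower and 23 higher. The upper quartile of tested genes gave 17 partner genes higher, and the reference genes gave 2, with 5 of the 9 genes lower by at least 2-fold. Leaving out samples gave 1 to 2 genes lower by at least 2-fold. The log2 ratio of *ELL2* to *ELL* changed sign with a pseudocount of 0.01 CPM (0.00091) and ranged from -0.075 to 0.035 without 1 sample. The cause of these shifts was not tested. The precision is limited by 3 samples a group.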
